A study of Mus musculus with 9 samples.

Results

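The genes described here are the 6 measured members of the FOS and JUN families that build the transcription factor AP-1 (activator protein 1): Fos, Fosb and Fosl2 of the FOS family, and Jun, Junb and Jund of the JUN family. They were taken by gene symbol from the deposited expression tables, where each symbol stood for 1 gene, and make up 6 of 55536 genes. The choice was made by gene name, with earlier results of these data known. The seventh family gene, Fosl1, is left to the lists of related genes below, with 13.4 counts over all 9 libraries.

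RNA sequencing of total RNA was done on muscle of male ICR mice, an outbred stock, in 3 groups of 3 libraries. Aged GW8510 libraries 1, 3 and 4 come from mice of 18 months that received GW8510 at 2 mg/kg by daily intraperitoneal injection over 14 days. Aged vehicle libraries 1, 3 and 4 come from vehicle-treated mice of 18 months, and young vehicle libraries 2, 3 and 4 from vehicle-treated mice of 2 months, with no genetic change named in any group. GW8510 is a benzenesulfonamide, and the series title names p21-activated kinases as its interaction partners; the labels do not say which muscle was taken, at what hour, how long after the last injection, or that each library is a separate animal. The p-values therefore measure the spread between these libraries, part of which may be technical, and a difference in stock, handling or collection time between 18-month and 2-month mice cannot be told apart from age.

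AP-1 is a dimer of basic leucine zipper proteins. JUN proteins pair with each other or with FOS proteins, FOS proteins need a JUN partner, and the dimers bind the DNA element TGACTCA and the related cyclic AMP element TGACGTCA. Fos, Fosb, Jun and Junb are immediate-early genes: kinases of the MAP kinase family and calcium signals act on factors already bound at their promoters, transcription starts without new protein synthesis, and the short-lived mRNA, marked by AU-rich elements in its 3′ untranslated region (UTR), soon disappears. In skeletal muscle, contraction, stretch and injury are known to induce Fos and Jun, while Jund is held to be expressed more steadily than the others.

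The promoter sequences are shown first because promoters hold elements through which these genes are known to be switched on. Bases upstream of the RefSeq start site are given 5′ to 3′ on the gene's strand (RefSeq, GRCm38.p6). Capitals mark TGACG and TATAAA for Fos (chr12:85473790-85473889, plus strand), TGACATCA and CCAAT for Jun (chr4:95052223-95052322, minus strand), TGACG and CCAAT for Junb (chr8:84978749-84978868, minus strand) and TGACG for Fosb (chr7:19310091-19310120, minus strand).
Fos: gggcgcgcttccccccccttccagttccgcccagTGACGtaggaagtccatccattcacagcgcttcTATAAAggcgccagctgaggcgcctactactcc
Jun: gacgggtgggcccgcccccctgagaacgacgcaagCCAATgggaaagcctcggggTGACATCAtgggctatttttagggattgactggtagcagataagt
Junb: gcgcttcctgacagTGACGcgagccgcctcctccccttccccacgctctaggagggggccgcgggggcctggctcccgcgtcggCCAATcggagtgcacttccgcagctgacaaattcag
Fosb: gcatggagttgcgggTGACGcaagcgcggg

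Within the 250 bases upstream of the start site, read on both strands, TGACG stood in 3 of the 6 windows: at -66 and -129 in Fos, at -60 in Fosb and at -106 in Junb, counted from the RefSeq start site. The same letters stood in 17.8% of 32851 RefSeq windows of that length. TGACATCA stood at -45 in Jun and in 2.93% of all windows, and CCAAT in Jun and Junb and in 33.8%. TATAAA stood at -33 in Fos and in 12.4% of all windows, and GGGCGG in Fos, Fosb, Fosl2 and Jun and in 32.7%. TGACTCA, TGACGTCA, which contains TGACG, and the CArG box had no match in these 6 windows, against 4.46%, 1.55% and 1.47% of all windows. The CArG box is the core of the serum response element. Bases further than 250 upstream were not searched, so these misses do not show that a gene lacks the element. A match of letters is a description of the window and not a bound site. The RefSeq start of Fosl2 lies 671 bases inside the GENCODE M21 gene and that of Jund 1210 bases upstream of it, so their windows are not printed.

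The 3′ UTRs differ in how often they hold ATTTA, the core of AU-rich elements. The longest annotated 3′ UTR (GENCODE M21) held ATTTA 4 times in Fos, 1 time in Fosb, 8 times in Fosl2, 4 times in Jun, 2 times in Junb and 1 time in Jund, over 815, 2302, 4653, 1233, 485 and 533 bases. Genes with a 3′ UTR within 10% of the same length held ATTTA a median of 1 time for Fos, 4 times for Fosb, 9 times for Fosl2, 2 times for Jun, 1 time for Junb and 1 time for Jund, so Fosb and Fosl2 held fewer copies than that median. The longer core TATTTAT, which contains ATTTA, stood in all but Junb, and among genes of similar 3′ UTR length it was held by 19.7% for Fos, 43.9% for Fosb, 66.6% for Fosl2, 30.5% for Jun, 13% for Junb and 13.2% for Jund. Sites are printed for Fos and Fosb, the genes with the largest log2 fold changes with age among the 6, with ATTTA in capitals, Fos from chr12:85477100-85477129 on the plus strand, where copies overlap, and Fosb from chr7:19303326-19303355 on the minus strand.
Fos 3′ UTR site: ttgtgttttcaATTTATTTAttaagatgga
Fosb 3′ UTR site: cccacccccagctATTTAtccctttcctgg

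The libraries held 21718930 to 27437937 counts. Acta1, skeletal muscle actin, was high in every library at 23570 to 44950 CPM, which are counts scaled to a common library size. The fast-fibre genes Myh4 and Tnnt3 were also high at 8986 to 37040 and 17000 to 22420 CPM. The slow-fibre genes Myh7 and Tnnt1 were low at 1.01 to 21.7 and 2.76 to 26.5 CPM. Aged vehicle library 4 stood apart: it lay at 41.2 on the second principal component, and its log-scale correlations with the other aged vehicle libraries were 0.945 and 0.940, against 0.972 between those. For the 6 genes, fold changes from comparisons that use it are given with and without it.

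In young muscle Jun was the most abundant of the 6 transcripts and Fos came next, whereas in both aged groups Jund stood second and Fos lower in the order. Levels between genes are compared in TPM, the deposited measure of transcript abundance that corrects for transcript length. Young vehicle means were 93.0 ± 18.7 TPM for Jun, 57.9 ± 10.1 for Fos, 48.6 ± 4.42 for Jund, 21.8 ± 6.28 for Junb, 6.85 ± 3.88 for Fosl2 and 3.70 ± 2.78 for Fosb (SD, n = 3). Neighbours in this order whose libraries overlapped were Fos and Jund, and Fosl2 and Fosb. Within each young library Fos was above Jund and Fosl2 above Fosb. In aged vehicle muscle the order was Jun, Jund, Junb, Fos, Fosl2 and Fosb. There Junb and Fos overlapped, with Junb above Fos within each library. In aged GW8510 muscle it was Jun, Jund, Fos, Junb, Fosl2 and Fosb. Again Fos and Junb overlapped, and Fos was above Junb in library 3 only.

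Fos, the founding family member and the usual partner of Jun in induced AP-1, had 8.94, 28.3 and 5.59 TPM in aged GW8510 libraries 1, 3 and 4, 2.86, 2.67 and 14.9 TPM in aged vehicle libraries 1, 3 and 4, and 64.4, 62.9 and 46.3 TPM in young vehicle libraries 2, 3 and 4. All 6 aged libraries lay below the lowest young library, while the aged groups overlapped each other. Fosb, which also yields the long-lived splice form known as deltaFosB, had 0.43, 0.12 and 0.83 TPM in aged GW8510, 0.07, 0.17 and 0.06 TPM in aged vehicle, and 6.89, 1.76 and 2.45 TPM in young vehicle libraries. Every aged library was again below every young one. The aged vehicle values of Fosb rest on 6, 14 and 4 counts, against 507, 138 and 178 in the young.

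Fosl2 encodes FRA-2, a FOS protein without the strong activation domain of FOS and FOSB. It had 1.45, 1.45 and 1.82 TPM in aged GW8510, 1.64, 1.86 and 2.55 TPM in aged vehicle, and 11.3, 5.01 and 4.23 TPM in young vehicle libraries. The aged libraries lay close together and below all young ones, and young vehicle library 2 was the high one of its group.

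Jun, the central JUN protein, had 37.4, 44.3 and 45.5 TPM in aged GW8510, 36.2, 32.2 and 112 TPM in aged vehicle, and 111, 93.8 and 73.8 TPM in young vehicle libraries. Aged vehicle library 4 lay just above the highest young library, and the other 5 aged libraries were below the lowest. Junb, whose product is often a weaker activator that can oppose JUN, had 11.3, 11.0 and 6.41 TPM in aged GW8510, 7.57, 9.62 and 19.6 TPM in aged vehicle, and 27.2, 23.4 and 14.9 TPM in young vehicle libraries. For Junb, aged vehicle library 4 lay between the young libraries, and the other 5 aged libraries below them.

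Jund, whose product is known to restrain growth, had 30.7, 30.3 and 34.8 TPM in aged GW8510, 24.3, 28.1 and 20.2 TPM in aged vehicle, and 49.96, 52.1 and 43.6 TPM in young vehicle libraries. The 3 groups did not overlap, with aged GW8510 between the others. Aged vehicle library 4, the highest of its group for Fos, Fosl2, Jun and Junb, was the lowest for Jund and Fosb.

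**Figure D1:**
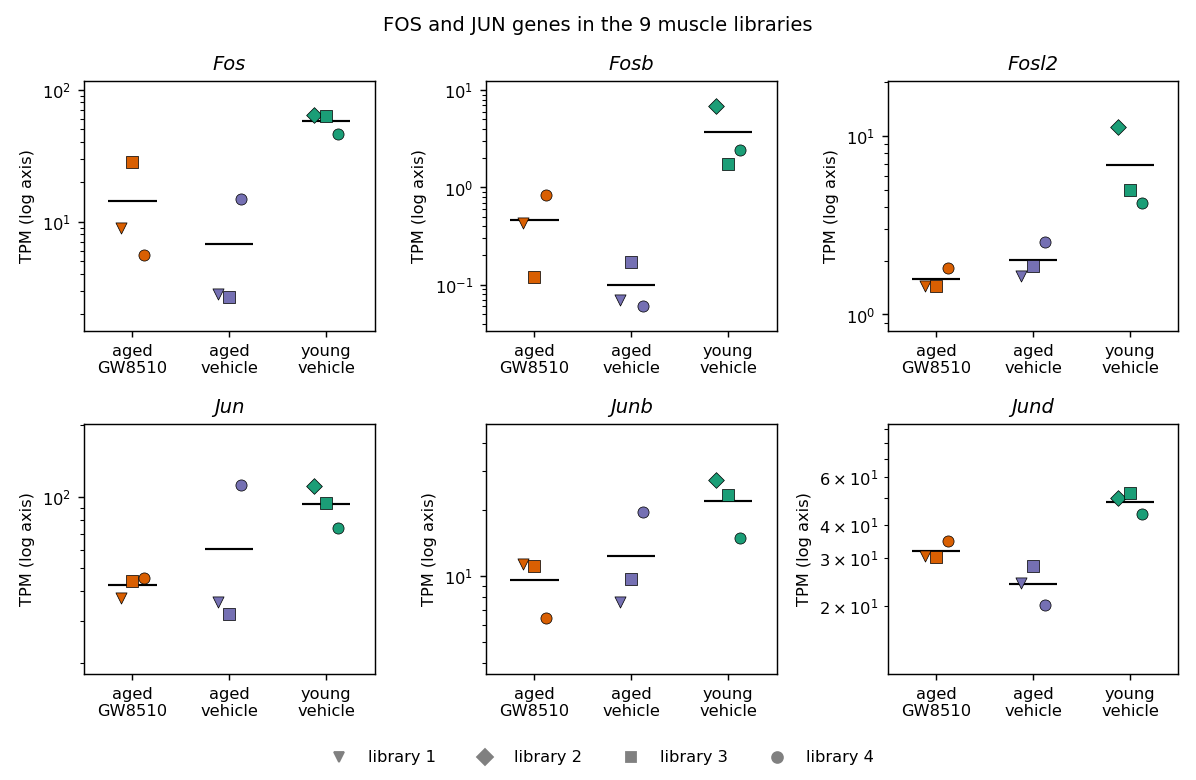
Level of each FOS and JUN gene in TPM, on log axes that differ between panels, in the 9 libraries (marker shape gives the library number) by group, with the group mean as a line. All aged libraries lie below all young libraries for Fos, Fosb, Fosl2 and Jund, and aged vehicle library 4 (purple circle) lies just above the young libraries for Jun and between them for Junb.

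Summed over the 6 genes, aged GW8510 libraries held 90.2, 115.5 and 94.9 TPM, aged vehicle libraries 72.5, 74.6 and 169.5 TPM, and young vehicle libraries 271, 239 and 185 TPM. The FOS genes took a smaller part of this sum in aged muscle, at 12%, 25.9% and 8.68% in aged GW8510 and 6.30%, 6.30% and 10.3% in aged vehicle, against 30.5%, 29.2% and 28.6% in young vehicle libraries, without overlap between aged and young libraries. The ratio of summed JUN to summed FOS transcripts was 7.34, 2.86 and 10.5 in aged GW8510, 14.9, 14.9 and 8.70 in aged vehicle, and 2.28, 2.43 and 2.50 in young vehicle libraries. Neither aged group overlapped the young group in this ratio, the nearest library being aged GW8510 3 with its high Fos. These shares and ratios were not tested, and they describe transcripts, not proteins or dimers.

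Inside the FOS family Fos was the largest part in every library. It made up 82.6%, 94.8% and 67.8% of FOS transcripts in aged GW8510, 62.6%, 56.8% and 85.1% in aged vehicle, and 78.0%, 90.3% and 87.4% in young vehicle libraries, so the groups overlapped. Fosl2 supplied 13.4%, 4.85% and 22.1% of FOS transcripts in aged GW8510, 35.9%, 39.6% and 14.6% in aged vehicle, and 13.7%, 7.19% and 7.99% in young vehicle libraries. The aged GW8510 libraries overlapped both other groups in this share. Inside the JUN family aged vehicle library 4 stood apart, where Jun made up 73.9% and Jund 13.3% of JUN transcripts, against 46.1% to 59.1% and 26.5% to 40.2% in the other 8 libraries. Junb made up 7.39% of JUN transcripts in aged GW8510 library 4, against 11.1% to 14.4% in the other 8 libraries.

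**Figure D2:**
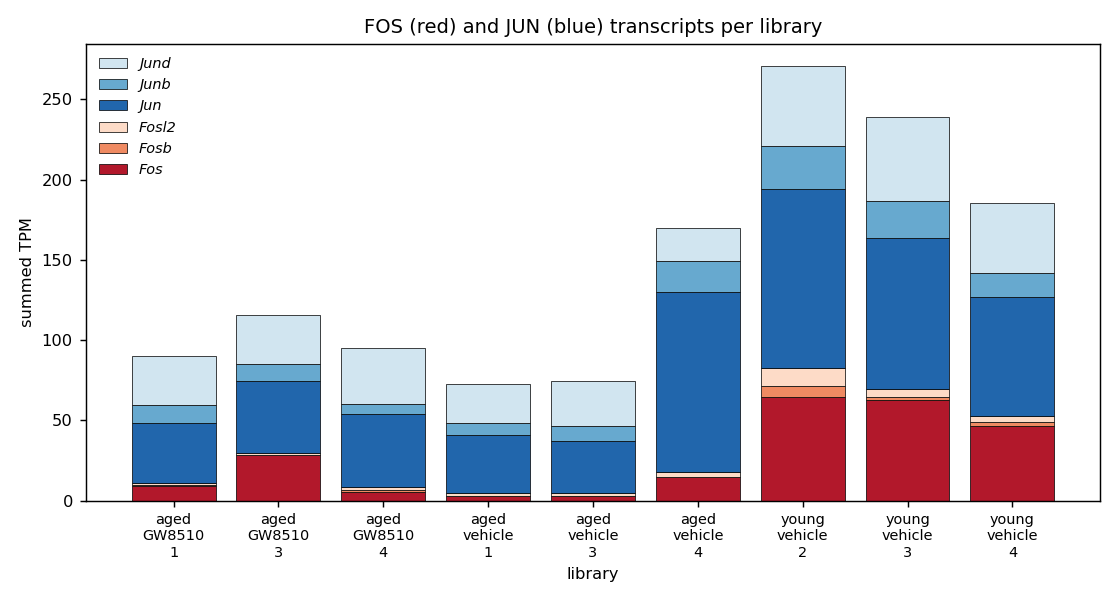
Stacked TPM of the FOS genes (reds, below) and JUN genes (blues, above) in each of the 9 libraries. The red part is 28.6% to 30.5% of the bar in young vehicle libraries and 6.30% to 25.9% in aged libraries, and the Jun part is widest in aged vehicle library 4 among the aged libraries.

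The comparison of aged with young vehicle muscle asks how AP-1 transcripts differ with age. Fosb, Fosl2 and Jund fell, Fos was also lower in all aged libraries but did not pass by edgeR, and Jun and Junb overlapped between the ages. All 6 genes passed the filter on low counts and were tested among 14384 genes, with 3 lower, 0 higher and 3 not past the threshold of 0.05 on the adjusted p (edgeR quasi-likelihood, Benjamini-Hochberg), where 1.22% of all genes were called in either direction and 0.695% were lower. The median log2 fold change was -1.28 over the 6 genes, -1.54 without aged vehicle library 4, and 0.01 over all genes tested.

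Among the FOS genes, Fosb averaged 0.321 ± 0.219 CPM in aged vehicle libraries, against 10.04 ± 6.35 CPM in young vehicle libraries (SD, n = 3 each), a log2 fold change of -4.95 with a standard error (SE) of 0.72 (edgeR adjusted p = 0.0255). The aged mean is close to the floor of 3 counts, which is 0.109 to 0.130 CPM in those libraries, and the size of the fall is uncertain for that reason. Fosl2 averaged 11.9 ± 2.12 CPM in aged vehicle libraries, against 37.6 ± 17.2 CPM in young vehicle libraries and was 3.15-fold lower (log2 fold change -1.65, SE 0.29, edgeR adjusted p = 0.0322). Fos averaged 10.4 ± 11.2 CPM in aged vehicle libraries, against 94.5 ± 11.5 CPM in young vehicle libraries. Its log2 fold change of -3.19 had an SE of 0.80, and the edgeR adjusted p was 0.0870, while DESeq2 (adjusted p = 0.0116) and limma-voom (0.0450) called it. Limma-voom did not call Fosb (adjusted p = 0.0533). Without aged vehicle library 4 the log2 fold change of Fos was -4.60 and passed (edgeR adjusted p = 0.0241, in a range of 0.00355 to 0.366 over the 15 alternatives).

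Among the JUN genes, Jund averaged 32.8 ± 8.19 CPM in aged vehicle libraries, against 61.8 ± 6.63 CPM in young vehicle libraries and was 1.88-fold lower (log2 fold change -0.91, SE 0.18). Its edgeR adjusted p of 0.0495 lies at the threshold, and it passed in 1 of the 9 fits that left out 1 library. Jun averaged 162 ± 109 CPM in aged vehicle libraries, against 245 ± 31.2 CPM in young vehicle libraries (log2 fold change -0.60, SE 0.37, edgeR adjusted p = 0.397). Without aged vehicle library 4 its log2 fold change was -1.30 and passed (edgeR adjusted p = 0.0103, in a range of 0.0103 to 0.678 over the alternatives), while that of Jund was -0.75 and did not (edgeR adjusted p = 0.0574, in a range of 0.00103 to 0.225). Junb averaged 17.7 ± 7.88 CPM in aged vehicle libraries, against 30.2 ± 6.82 CPM in young vehicle libraries (log2 fold change -0.77, SE 0.35, edgeR adjusted p = 0.267). Without aged vehicle library 4 the log2 fold change of Junb was -1.18 and did not pass (edgeR adjusted p = 0.128, in a range of 0.128 to 0.640), and those of Fosb and Fosl2 were -4.67 and -1.79 and passed. Libraries did not overlap for 4 of the 6 genes, each lower in aged vehicle, and over all genes tested 13.5% were lower without overlap. Leaving out 1 library at a time gave 0 genes called without young vehicle library 3 or aged vehicle library 1. Over all genes, 8 were called higher and 11 lower of 14851 without young vehicle library 3. Without aged vehicle library 1 they numbered 24 and 16 of 14783, against 75 and 100 of 14384 with all libraries. In these fits the log2 fold change of Fosb was -5.22 and -4.72, and that of Fosl2 -1.79 and -1.53. The most, 4 genes, were called without aged vehicle library 4 (0.963% of all genes called in that fit). There was 1 gene without aged GW8510 library 1 or 3, which enter only through the shared estimate of spread. Over all genes those fits called 49 higher and 72 lower, and 11 higher and 24 lower. Of the 9 fits without 1 library, Fosb passed in 7 and Fosl2 in 4. Without young vehicle library 2 their log2 fold changes were -4.31 and -1.23, and both passed.

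**Figure D3:**
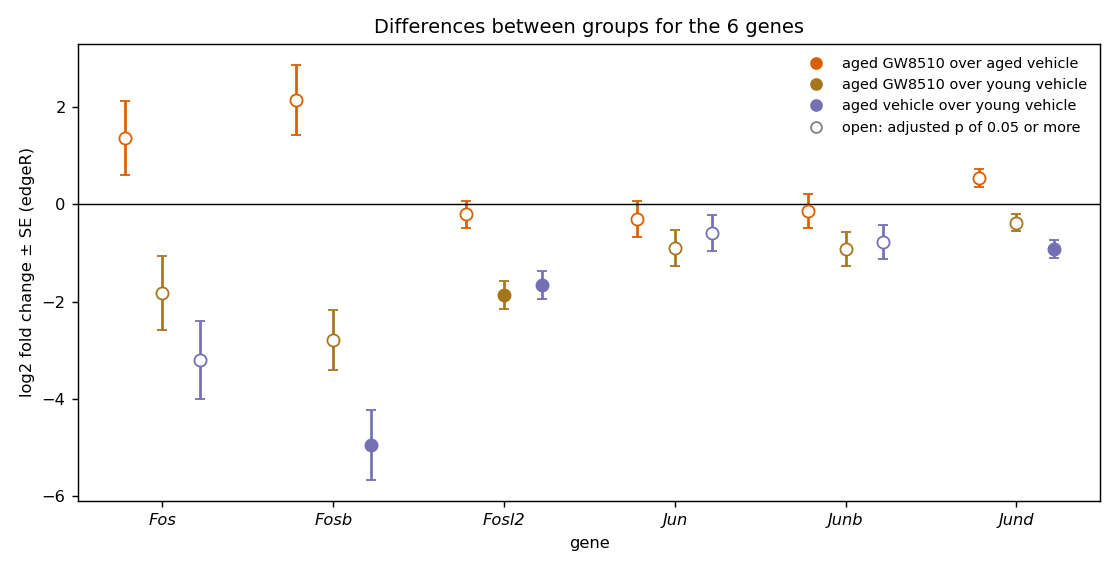
Log2 fold changes with their SE from the edgeR fit for each gene and comparison, filled where the adjusted p is under 0.05. With age Fosb (-4.95), Fosl2 (-1.65) and Jund (-0.91) are filled, for GW8510 against aged vehicle no point is filled, and for GW8510 against young vehicle Fosl2 (-1.86) is.

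In the authors' deposited table for this comparison, Fos, Fosb and Fosl2 are marked as significant, with log2 ratios of -3.18, -4.95 and -1.64 and adjusted p-values of 0.00766, 2.56e-15 and 9.55e-05. Jund carries an adjusted p of 0.00909 in the authors' deposited table without a mark, at a log2 ratio of -0.90. The authors' deposited table marks 1.78% of its genes as lower. Its marks differ from the edgeR calls for Fos, marked but not called, and for Jund, called but not marked. For Jund both adjusted p-values are under 0.05, so the mark does not follow that threshold alone.

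The treatment comparison asks whether GW8510 changed AP-1 transcripts in aged muscle. None of the 6 genes passed, and the 2 FOS genes with the highest fold changes, Fosb and Fos, overlapped between the groups. By edgeR's quasi-likelihood test 0 of 6 genes passed, where 0% of the 14384 genes were called, and at an unadjusted p under 0.05 there were 2 of the 6, Fosb and Jund. DESeq2 and limma-voom also called 0 of the 6. Of all genes, 647 had an unadjusted p under 0.05 by edgeR, DESeq2 called 8, or 0.0312%, and limma-voom 0.

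Fosb averaged 1.45 ± 0.962 CPM in aged GW8510 and 0.321 ± 0.219 CPM in aged vehicle libraries (log2 fold change 2.16, SE 0.72, edgeR adjusted p = 0.934). Aged GW8510 library 3, with 10 counts, lay within the aged vehicle libraries, and the other 2 above them. Jund averaged 47.7 ± 0.327 CPM in aged GW8510 and 32.8 ± 8.19 CPM in aged vehicle libraries (log2 fold change 0.54, SE 0.18, edgeR adjusted p = 0.934). Jund alone of the 6 genes had no overlap between these groups, where 3.89% of all genes were higher without overlap. Without aged vehicle library 4 the log2 fold changes of Fosb and Jund were 1.87 and 0.37. Fos averaged 26.7 ± 24.2 CPM in aged GW8510 and 10.4 ± 11.2 CPM in aged vehicle libraries, and its log2 fold change of 1.37 (SE 0.76) ranged from 0.31 to 2.76 when 1 library was left out, the low end without aged GW8510 library 3 and the high end without aged vehicle library 4.

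Fosl2, Jun and Junb had log2 fold changes near 0 between aged GW8510 and aged vehicle: -0.20 (SE 0.28), -0.29 (SE 0.37) and -0.14 (SE 0.35). Without aged vehicle library 4 those of Jun and Junb turned to 0.40 and 0.25, so no direction can be given for them, and that of Fosl2 was -0.08. None of the 3 passed in that fit, and a p that misses the threshold does not show that the groups are alike.

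**Figure D4:**
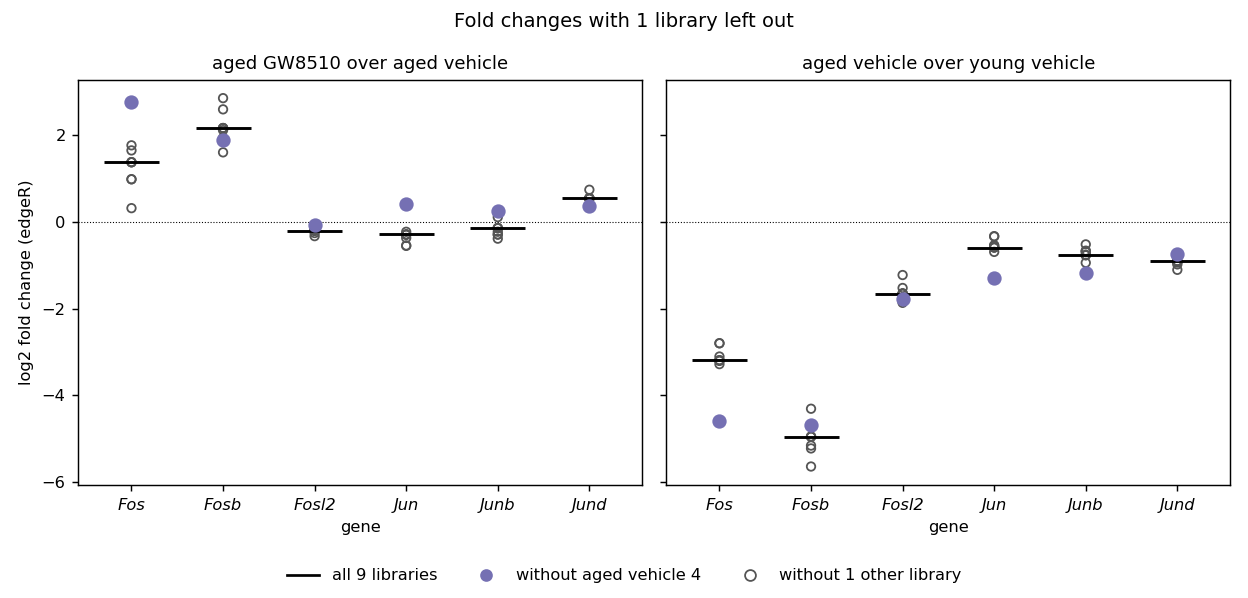
Log2 fold changes of the 6 genes with all 9 libraries (line) and with 1 library left out (circles), for aged GW8510 over aged vehicle on the left and aged vehicle over young vehicle on the right. Leaving out aged vehicle library 4 (filled) takes Fos to -4.60 and Jun to -1.30 with age, and Fos to 2.76 and Jun to 0.40 with GW8510.

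Set against young vehicle muscle, aged GW8510 muscle had lower Fosl2, and the other 5 genes did not pass. This comparison shares libraries with both others, so its values are given only side by side with theirs. Fosl2 averaged 10.4 ± 0.583 CPM in aged GW8510 and 37.6 ± 17.2 CPM in young vehicle libraries, 3.63-fold lower (log2 fold change -1.86, SE 0.29, edgeR adjusted p = 0.0225). Thus 1 of 6 genes was lower and 0 were higher, where 0.751% of all genes were called and 0.417% were lower. All 6 genes were lower without overlap, against 12.8% of all genes, and their median log2 fold change was -1.37.

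The log2 fold changes of aged GW8510 over young vehicle were -1.82 (SE 0.76) for Fos, -2.79 (SE 0.62) for Fosb, -0.89 (SE 0.37) for Jun, -0.91 (SE 0.35) for Junb and -0.37 (SE 0.18) for Jund, with edgeR adjusted p-values of 0.263, 0.0701, 0.266, 0.230 and 0.341. Without aged vehicle library 4, which enters this comparison only through the shared spread, Fosb (edgeR adjusted p = 0.0381, in a range of 0.000203 to 0.346 over the alternatives) and Jun (0.0114, in a range of 0.0114 to 0.640) passed beside Fosl2, and 4% of all genes were called. Fosl2 passed in 5 of the 9 fits without 1 library. It lost the call without young vehicle library 3 or any 1 of the aged GW8510 libraries. Its log2 fold changes in those fits were -1.825 to -1.998. Over all genes, 11 were called higher and 16 lower without young vehicle library 3. Without aged GW8510 library 1, 3 or 4 they numbered 20 and 18, 13 and 12, and 53 and 73. With all libraries 48 were higher and 60 lower. Without young vehicle library 2 the log2 fold changes of Fosl2 and Fosb were -1.44 and -2.15. The authors' deposited table marks Fosb and Fosl2 here, with adjusted p-values of 3.34e-06 and 1.18e-08, where it marks 1.77% of genes as lower. Jun and Junb have adjusted p-values of 9.17e-06 and 0.0214 in the authors' deposited table without a mark, at log2 ratios of -0.89 and -0.91. For aged GW8510 against aged vehicle the authors' deposited table marks 0 of the 6 genes and 0.0246% of its genes.

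Genes related to AP-1 were read from 6 lists drawn up with earlier results of these data known. Calls with age were 7 of 23 among other immediate-early genes, 1 of 9 among partner factors and 1 of 14 among phosphatases and turnover genes. There were 0 among MAP kinases, promoter factors and AP-1 targets. Over all genes tested 1.22% were called, and the differences between lists were not tested. Among the dimer partners of the same basic leucine zipper class, 9 of 13 were tested, and 1, Atf3, fell with age. DESeq2 gave 5, where it called 6.03% of all genes. The fit with no filter gave 5, where 265 genes were called higher and 434 lower of 25713. There were 0 to 2 when 1 library was left out, where 8 to 68 of all genes were called higher and 11 to 91 lower. With the replicate block there were 0, where 3 of all genes were called higher and 2 lower. The median log2 fold change of the partners was -1.25. Atf3, a stress-induced partner of JUN proteins, had 27.4, 16.9 and 67.3 CPM in aged GW8510, 4.95, 10.1 and 4.68 CPM in aged vehicle, and 51.7, 47.96 and 61.1 CPM in young vehicle libraries. Aged vehicle libraries were below all others. The aged over young log2 fold change of Atf3 was -3.03 (SE 0.50, edgeR adjusted p = 0.0306), and it lost the call without aged vehicle library 4 (edgeR adjusted p = 0.0530, in a range of 6.35e-09 to 0.237 over the alternatives). Between aged GW8510 and aged vehicle it was 2.50 (SE 0.49, edgeR adjusted p = 0.934), which passed in 2 of the 15 alternative fits, with adjusted p-values over these from 0.000121 to 1.

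Of 23 other immediate-early genes tested, 7 fell with age and 0 rose, with a median log2 fold change of -1.27. Without 1 library the count was 1 (young vehicle 3 or aged vehicle 1), 2 (young vehicle 2) or 3 (aged GW8510 3). It was 5 to 9 for the other 5. Over all genes, 8 were called higher and 11 lower without young vehicle 3, and 24 and 16 without aged vehicle 1. Without young vehicle 2 they were 16 and 32, and without aged GW8510 3 they were 11 and 24. The 7 genes called with all libraries stand beside 1.22% of all genes called. DESeq2 called 16 of the 23, where it called 6.03% of all genes. Klf10, a zinc finger factor induced by growth factor signals, averaged 16.7 ± 2.00 CPM in aged vehicle libraries, against 38.8 ± 1.68 CPM in young vehicle libraries (log2 fold change -1.21, SE 0.16, edgeR adjusted p = 0.0147). It averaged 15.8 ± 2.46 CPM in aged GW8510 libraries and was lower than in young vehicle there too (edgeR adjusted p = 0.00940). Egr1, whose promoter like that of Fos answers to serum response factor, had 5.95, 6.51 and 7.92 CPM in aged GW8510, 4.15, 6.13 and 4.68 CPM in aged vehicle, and 38.4, 15.9 and 16.7 CPM in young vehicle libraries. Egr1 was lower in both aged groups than in young vehicle (log2 fold changes -1.80 and -2.25, edgeR adjusted p = 0.0475 and 0.0288, for aged GW8510 and aged vehicle), and passed in 2 and 7 of the 9 fits without 1 library. Klf2, a factor of the endothelium that answers to blood flow, and Ier2, a short-lived nuclear protein gene, fell by 1.69 and 1.33 on the log2 scale with age (edgeR adjusted p = 0.0264 and 0.0288), and passed in 6 and 5 of the 9 fits without 1 library. Against aged vehicle, 0 of the 23 genes passed in aged GW8510 muscle by edgeR, DESeq2 or limma-voom, with 2 at an unadjusted p under 0.05 by edgeR and a median log2 fold change of 0.35.

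None of 17 genes of the MAP kinase pathway passed with age by edgeR, DESeq2 or limma-voom, and their median log2 fold change was -0.03. At an unadjusted p under 0.05 by edgeR there were 0 of the 17, against 2763 of all 14384 genes tested. Of 12 factors that act at the Fos and Jun promoters, such as serum response factor and CREB, 0 passed by the same 3 tools, with 2 at an unadjusted p under 0.05 by edgeR and a median of -0.09. Among 14 MAP kinase phosphatases and genes for the turnover of FOS and JUN the median was -0.30 and 1 gene fell. That gene, Dusp8, a phosphatase of the JNK and p38 kinases, averaged 18.2 ± 5.50 CPM in aged vehicle libraries, against 50.7 ± 7.68 CPM in young vehicle libraries (log2 fold change -1.48, SE 0.25, edgeR adjusted p = 0.0313). It passed in 4 of the 9 fits without 1 library, and without aged vehicle library 4 its log2 fold change was -1.25 (edgeR adjusted p = 0.0349, in a range of 1.42e-05 to 0.245 over the alternatives). With DESeq2, 4 of these 14 genes were lower. Of 21 known AP-1 target genes 14 were tested; 0 passed with age by edgeR or limma-voom and 3 by DESeq2, where limma-voom called 1.08% and DESeq2 6.03% of all genes, with 6 at an unadjusted p under 0.05 by edgeR, and 11 of the 14 had negative log2 fold changes, with a median of -0.80.

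**Figure D5:**
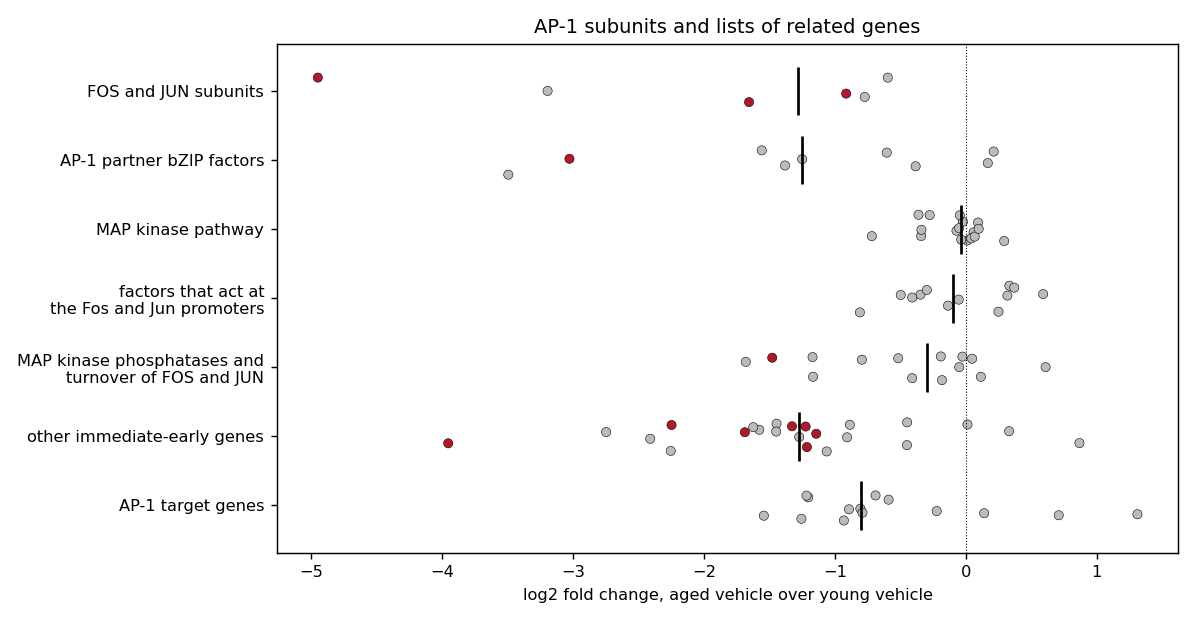
Log2 fold changes of aged vehicle over young vehicle for the 6 genes and the lists of related genes, 1 point per gene, red where the edgeR adjusted p is under 0.05, with the median as a bar. Medians are -1.28 for the FOS and JUN genes, -1.25 for partner factors, -1.27 for other immediate-early genes, -0.80 for AP-1 targets and between -0.30 and -0.03 for the 3 remaining lists.

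Markers of the cell types of muscle stood at different levels in the same groups. The 14 skeletal muscle fibre markers summed to 122800 to 143300 CPM in aged GW8510 and 131400 to 158800 CPM in aged vehicle libraries. In young vehicle libraries they summed to 160900 to 183900 CPM. With age 8 of the 14 had positive log2 fold changes and 6 negative, 0 past the threshold. The 10 fibroblast markers summed to 268 to 634 CPM in aged GW8510, 112 to 545 CPM in aged vehicle and 1218 to 2746 CPM in young vehicle libraries, and 10 of 10 had negative log2 fold changes with age, 1 past the threshold with all libraries and 0 without aged vehicle library 4. Endothelial markers summed to 382 to 644 CPM in aged GW8510, 330 to 439 CPM in aged vehicle and 478 to 642 CPM in young vehicle libraries, with 0 of 11 past the threshold and 11 of 11 negative with age. Macrophage markers summed to 40.3 to 62.7 CPM in aged GW8510, 35.3 to 61.2 CPM in aged vehicle and 46.1 to 129 CPM in young vehicle libraries, with 7 of 7 negative with age and 0 past the threshold. Tendon markers summed to 54.8 to 99.4 CPM in aged GW8510, 41.8 to 97.8 CPM in aged vehicle and 177 to 355 CPM in young vehicle libraries, and 6 of 6 tested were negative with age (median log2 fold change -3.58, or -3.07 without aged vehicle library 4), 0 of them past the threshold. Schwann cell markers summed to 24.5 to 116 CPM in aged GW8510, 21.6 to 98.9 CPM in aged vehicle and 108 to 162 CPM in young vehicle libraries, with 4 of 5 negative with age and 0 past the threshold. Adipocyte markers summed to 232 to 347 CPM in aged GW8510 libraries. They summed to 148 to 189 CPM in aged vehicle and 158 to 189 CPM in young vehicle libraries, with 4 of 5 negative with age and 0 past the threshold. In aged GW8510 over aged vehicle 5 of 5 adipocyte, 11 of 11 endothelial and 7 of 7 macrophage markers were positive. So were 7 of 7 smooth muscle and pericyte, 7 of 10 fibroblast, 5 of 6 tendon and 3 of 5 Schwann cell markers. None of these passed the threshold. Smooth muscle and pericyte markers summed to 383 to 486 CPM in aged GW8510, 154 to 446 CPM in aged vehicle and 343 to 546 CPM in young vehicle libraries. With age 6 of 7 of them were negative. Erythroid markers went the other way, with 5 of 5 positive with age and in aged GW8510 over aged vehicle, 0 past the threshold. Their sums were 2.995 to 573.5 CPM in aged GW8510, 11.74 to 455.5 CPM in aged vehicle and 50.54 to 106.9 CPM in young vehicle libraries. Aged vehicle library 4, with its high Jun, had the lowest sums of its group for endothelium (330 CPM), fibroblasts (112 CPM), tendon, Schwann cells, adipocytes and smooth muscle, and neutrophil markers at 19.1 CPM, against 0.292 to 5.48 CPM in the other 8 libraries. None of the endothelial, fibroblast, macrophage, tendon, Schwann cell and adipocyte markers was at 0 throughout a group, and 2 of the 4 neutrophil markers were at 0 in all young vehicle libraries. In bulk muscle, fewer cells of a type and less RNA per cell cannot be told apart, and the part of these markers in the levels of the 6 genes was not tested.

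Reads at 3 of the JUN loci may be shared with overlapping genes, since it is not stated whether counting used strand. Junos, an antisense transcript, overlaps Jun (ENSMUSG00000052684, minus strand) over 689 bases and had 260 to 626 counts per library against 2397 to 7717 for Jun. It had 260 counts in aged vehicle library 4, the lowest of the 9, where Jun had 6643. Prdx2, a peroxiredoxin gene with 2720 to 4016 counts, overlaps Junb (ENSMUSG00000052837) over 351 bases at its 3′ end, and the antisense gene Gm11175 overlaps Jund (ENSMUSG00000071076) over 919 bases with at most 13.3 counts. Fos (ENSMUSG00000021250), Fosb (ENSMUSG00000003545) and Fosl2 (ENSMUSG00000029135) overlap no annotated gene.

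The profile of each gene over the 9 libraries was set against all others as the root mean square (RMS) difference of centred log2 CPM, over 11391 genes with a mean of at least 1 CPM. Among the 6 genes, Jun and Junb were the closest pair at 0.34 and Fosb and Jun the farthest at 1.85, and Fos and Fosb were 1.58 apart. The difference is not scaled, so it also follows how far each gene itself varies. The RMS deviation of a gene from its own mean was 2.04 for Fosb, 0.85 for Fosl2, 0.60 for Junb and 0.43 for Jund. For Jun, whose own RMS deviation was 0.59, the nearest genes were Zbtb16 (0.21), a zinc finger factor, Dysf (0.24), which encodes the membrane repair protein dysferlin, and Npc1 (0.25), a lysosomal cholesterol transporter. Dysf, like Jun, was highest in aged vehicle library 4, at 169.8 CPM against 49.8 to 123 CPM in the other libraries. For Fos, whose own RMS deviation was 1.78, no gene came nearer than Rtp4 (0.88), an interferon-induced gene, followed by Slc37a1 (1.05), a sugar phosphate transporter, and Plk3 (1.06), a stress-responsive kinase. These likenesses include the group differences described above and rest on 9 libraries.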

How the data were processed

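The authors deposited expected counts, not normalized, in 3 tables, 1 per pair of groups, each with 55536 genes. The authors also deposited TPM values, used here for levels between genes, and, for each pair of groups, log2 ratios, p-values (raw and adjusted) and marks of significance. The submitters' processing notes name GRCm38, CASAVA, HISAT2, StringTie, RSEM, DESeq2 and edgeR, and versions, roles and the strand setting are not given in the sources used here. Library counts were the same in each table that held them (largest difference 0).

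Counts were rounded to whole numbers, filtered with filterByExpr (14384 genes left), scaled with TMM and tested with edgeR 4.0.16 (R 4.3.3), quasi-likelihood F test, two-sided, all 9 libraries in 1 fit, with Benjamini-Hochberg adjustment over all genes tested and a threshold of 0.05. SE was obtained by dividing the size of the log2 fold change by the root of F. CPM uses TMM-adjusted library sizes for the FOS and JUN genes, the genes named from the lists and the nearest profiles. For the summed cell type markers and the single muscle fibre genes, CPM uses total counts without TMM factors. Floors of 3 counts (0.103 to 0.136 CPM) cover counting error only. Alternatives were DESeq2 1.42.0, limma-voom (limma 3.58.1), other size factors, no filter, only the compared libraries, a replicate block and leaving out each library.

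The members and lists were chosen with earlier results of these data known. Named are the 6 genes, from each list of related genes up to 4 members past the threshold in any comparison with the smallest adjusted p, and the 3 nearest profiles to Fos and to Jun, without clone-style symbols and pseudogenes. Gene positions and 3′ UTR sequences come from GENCODE M21, with positions on GRCm38, and promoter sequences from RefSeq.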

Additional observations from a re-analysis of the deposited data

How the results depend on the processing

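Log2 fold changes of the 6 genes kept their direction in each of the 15 alternatives for aged vehicle over young vehicle and for aged GW8510 over young vehicle. With age, 3 genes passed; 1 did when only the 6 compared libraries were fitted (Fosb), 0 with the replicate block, and 0 to 4 when 1 library was left out, while DESeq2, limma-voom, other size factors and no filter gave 2 to 4. For aged GW8510 over young vehicle, 1 gene passed; 2 did with DESeq2 and with no filter, 3 with only the 6 compared libraries, 0 with the replicate block, and 0 to 3 when 1 library was left out. For aged GW8510 over aged vehicle 0 genes passed in each alternative. There Jun turned to 0.40 and Junb to 0.25 without aged vehicle replicate 4, and Junb to 0.11 without aged GW8510 replicate 4; the cause was not tested. Leaving out 1 library at a time, Jun ranged from -0.56 to 0.40 and Junb from -0.39 to 0.25. With 1 library left out, 8 to 68 of all genes were called higher and 11 to 91 lower with age. For aged GW8510 over young vehicle they numbered 10 to 257 and 12 to 337. Over all genes, those called with age numbered 389 higher and 557 lower with DESeq2, 265 and 434 with no filter, 11 and 39 with only the compared libraries, and 3 and 2 with the block, against 75 and 100, and for aged GW8510 over young vehicle 398 and 422, 241 and 312, 207 and 262, and 3 and 5, against 48 and 60. The replicate numbers do not pair the libraries by any label, and 1 of 7 same-numbered pairs had deviations correlated above 0.1 (range -0.21 to 0.14). Number 2 occurs only in the young vehicle group, so the block sets that library aside. With the block the log2 fold changes with age were -4.21 for Fosb, -1.14 for Fosl2 and -0.99 for Jund. Without it they were -4.95, -1.65 and -0.91. Depth limits Fosb most, with 4 to 14 counts in aged vehicle libraries.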
